A study of Homo sapiens with 12 samples.

Results

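The HOXD cluster is a run of 9 homeobox genes on human chromosome 2, and all 9 (HOXD1, HOXD3, HOXD4, HOXD8, HOXD9, HOXD10, HOXD11, HOXD12 and HOXD13) were taken by gene symbol from a table of read counts for 56638 genes. They were read in NT2/D1, a line of human embryonal carcinoma (a germ cell tumour) whose cells are pluripotent and differentiate on all-trans retinoic acid (ATRA). There were 4 groups of 3 RNA-seq libraries: PRMT6 knockout cells with ATRA (1 µM for 3 days), untreated PRMT6 knockout cells, CRISPR/Cas9 control cells with ATRA, and untreated CRISPR/Cas9 control cells. PRMT6 had been deleted with CRISPR/Cas9, and it encodes an enzyme that methylates arginines on histone H3 and other proteins. All knockout titles carry the same line number, so a difference between the genotypes and a difference between cell lines cannot be told apart.

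HOX genes encode homeodomain transcription factors that give cells their position along the head-to-tail axis of the embryo. Within a cluster the anterior genes, with low numbers, lie at one end and are switched on first by retinoic acid, while the posterior genes, with high numbers, lie at the other end and are switched on later, in the tail end of the body, the limbs and the genital bud. In pluripotent cells the clusters are largely held silent under Polycomb marks, and embryonal carcinoma cells given retinoic acid are a classic model of their opening. Along the chromosome the order is EVX2, HOXD13, HOXD12, HOXD11, HOXD10, HOXD9, HOXD8, HOXD3 with HOXD4, whose gene model lies inside that of HOXD3, and HOXD1.

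The start sites of the members that the results turn on are shown first, because the genes of one end of the cluster moved together. RefSeq promoter sequences (GRCh38.p14) were matched for 8 of the 9 genes by symbol. The 150 bases upstream of the start, on the plus strand and 5′ to 3′, are given for HOXD13 (chr2:176092571-176092720) and HOXD10 (chr2:176116628-176116777), a pair of posterior genes, for HOXD8 (chr2:176129555-176129704) and HOXD3 (chr2:176157157-176157306), which are central and anterior, and for HOXD1 (chr2:176188518-176188667), the anterior gene that was not called in any comparison with all libraries in the fit. Capitals mark the letters found in a search of both strands for the CCAAT box, for the TATA box in its TATAAA form, and for a retinoid receptor half-site (AGGTCA or its variants with letters AGTTCA, or GGGTCA, or else GGTTCA), with a match on the minus strand in capitals as it reads on the plus strand.
HOXD13: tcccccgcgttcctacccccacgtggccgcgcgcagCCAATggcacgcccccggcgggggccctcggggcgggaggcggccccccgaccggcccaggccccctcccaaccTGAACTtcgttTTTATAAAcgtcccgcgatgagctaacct
HOXD10: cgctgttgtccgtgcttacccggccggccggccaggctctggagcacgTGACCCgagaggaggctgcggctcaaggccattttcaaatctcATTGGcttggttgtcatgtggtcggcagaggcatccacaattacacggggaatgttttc
HOXD8: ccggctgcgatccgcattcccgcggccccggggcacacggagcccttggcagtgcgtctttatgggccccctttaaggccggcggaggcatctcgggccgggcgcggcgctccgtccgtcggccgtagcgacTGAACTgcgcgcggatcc
HOXD3: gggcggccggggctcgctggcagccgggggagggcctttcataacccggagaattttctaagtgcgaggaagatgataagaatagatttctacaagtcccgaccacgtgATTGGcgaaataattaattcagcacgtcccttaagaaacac
HOXD1: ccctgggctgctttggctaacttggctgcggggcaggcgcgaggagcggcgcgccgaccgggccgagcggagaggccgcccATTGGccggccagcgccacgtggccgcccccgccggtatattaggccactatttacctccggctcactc
CCAAT, the box bound by the factor NF-Y, was found in 6 of the 8 promoters, against 23.5% of 35116 RefSeq promoter windows of the same length. It lay 114 bases before the start of HOXD13, 59 before HOXD10, 41 before HOXD3 and 69 before HOXD1, and the HOXD8 window held none. TATAAA was found only in HOXD13 among the 8, where 2 matches on opposite strands overlapped at 27 and 29 bases before the start; 6.71% of all windows held it. A retinoid half-site was found in 3 of the 8, at 40 bases before the start in HOXD13, 102 in HOXD10 and 18 in HOXD8, against 21.8% of all windows. The pair of letters CG occurred 23 times in the HOXD8 window, 18 times in those of HOXD13 and HOXD1, and 10 times in those of HOXD10 and HOXD3, and the median over all windows was 7. These matches describe the letters in the windows and were not tied to the expression values. The HOXD3 window lies past that of HOXD4 (chr2:176151400-176151549), although the gene model of HOXD3 encloses HOXD4. The HOXD3 start shown is therefore not the outermost start of that gene model.

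The libraries held 25469881 to 60394918 counts. PRMT6 itself stood at no more than 0.0587 CPM (read counts scaled to the same total in every library) in any knockout library, against 1.94 to 29.9 CPM in the control libraries, the lowest of which was control untreated 2. All 10 pluripotency markers of the list used were above 1 CPM in every library, and their summed level was 1570 to 5720 CPM. In the knockout, 1 of them was called lower with ATRA (SOX2) and 2 untreated (SOX2 and LIN28B) by edgeR's quasi-likelihood test. Of all tested genes, 4.24% were called lower with ATRA and 21.9% untreated. None of the 10 markers was called higher by edgeR in either condition. With ATRA, 2 of the 10 were higher and 3 lower at an edgeR unadjusted p under 0.05, beside 2087 and 3289 of 19130 tested genes. NANOG, for example, had 25.8, 42.2 and 25.3 CPM in the knockout with ATRA, against 2.83, 18.1 and 8.35 CPM in the control with ATRA. Of 3 neural progenitor markers tested, SOX21 and FABP7 were called lower in both conditions: SOX21 had 0.174 to 0.47 CPM in the knockout with ATRA, against 1.02 to 13.9 CPM in the control with ATRA, and 0.342 to 0.492 CPM in the untreated knockout, against 12.1 to 25.2 CPM in the untreated control. NES, the third, was not called: it had 662 to 793 CPM in the knockout with ATRA, against 510 to 1220 CPM in its control. Untreated it had 570 to 655 CPM in the knockout, against 263 to 854 CPM. With ATRA, limma-voom called 1 of the 3 lower, beside 2.62% of all tested genes. Without the library control ATRA 2, edgeR also called 1 lower, beside 1.78%. The part of these markers in the HOXD differences was not tested. A set of 3 libraries stood apart from others of their group. The library labelled control ATRA 2 had 1.17 CPM of HOXB1, a classic retinoic acid target, against 72.8 and 39.2 CPM in the other two libraries of its group; CYP26A1, a retinoic acid-degrading enzyme chosen after its values were seen, had 0.052 CPM there, against 256 and 12.4 CPM. In knockout ATRA 2 and knockout untreated 3 a list of 10 fibroblast marker genes, none of them without counts in any group, summed to 2260 and 2250 CPM, against 12300 to 13900 CPM in the other 4 knockout libraries and 270 to 1520 CPM in the control libraries; COL3A1 made up 1670 and 1320 CPM of those sums. Of the 10 genes, 7 (COL1A1, COL3A1, DCN, LUM, FAP, PDGFRB and POSTN) were lower in each of these libraries than in both others of its group. COL1A2 and PDGFRA were not, and THY1 was lower only in knockout ATRA 2. In the knockout libraries the sum mainly follows COL3A1 and COL1A1, whereas in control untreated 2 THY1 made up 414 of 449 CPM. DCN had 0.264 and 0.128 CPM in knockout ATRA 2 and knockout untreated 3, against 17.9 to 27.9 CPM in the other 4 knockout libraries. THY1 had 101 CPM in knockout ATRA 2, against 109 and 110 CPM in the others of its group, and 252 CPM in knockout untreated 3, against 236 and 245 CPM. By a chi-square comparison over genes, knockout ATRA 1 and 3 differed by 1.91 per gene and knockout untreated 1 and 2 by 9.01 per gene, while other pairs of a group differed by 78.1 to 416, so both near pairs differ by more than sampling noise but far less than the rest.

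**Figure D1:**
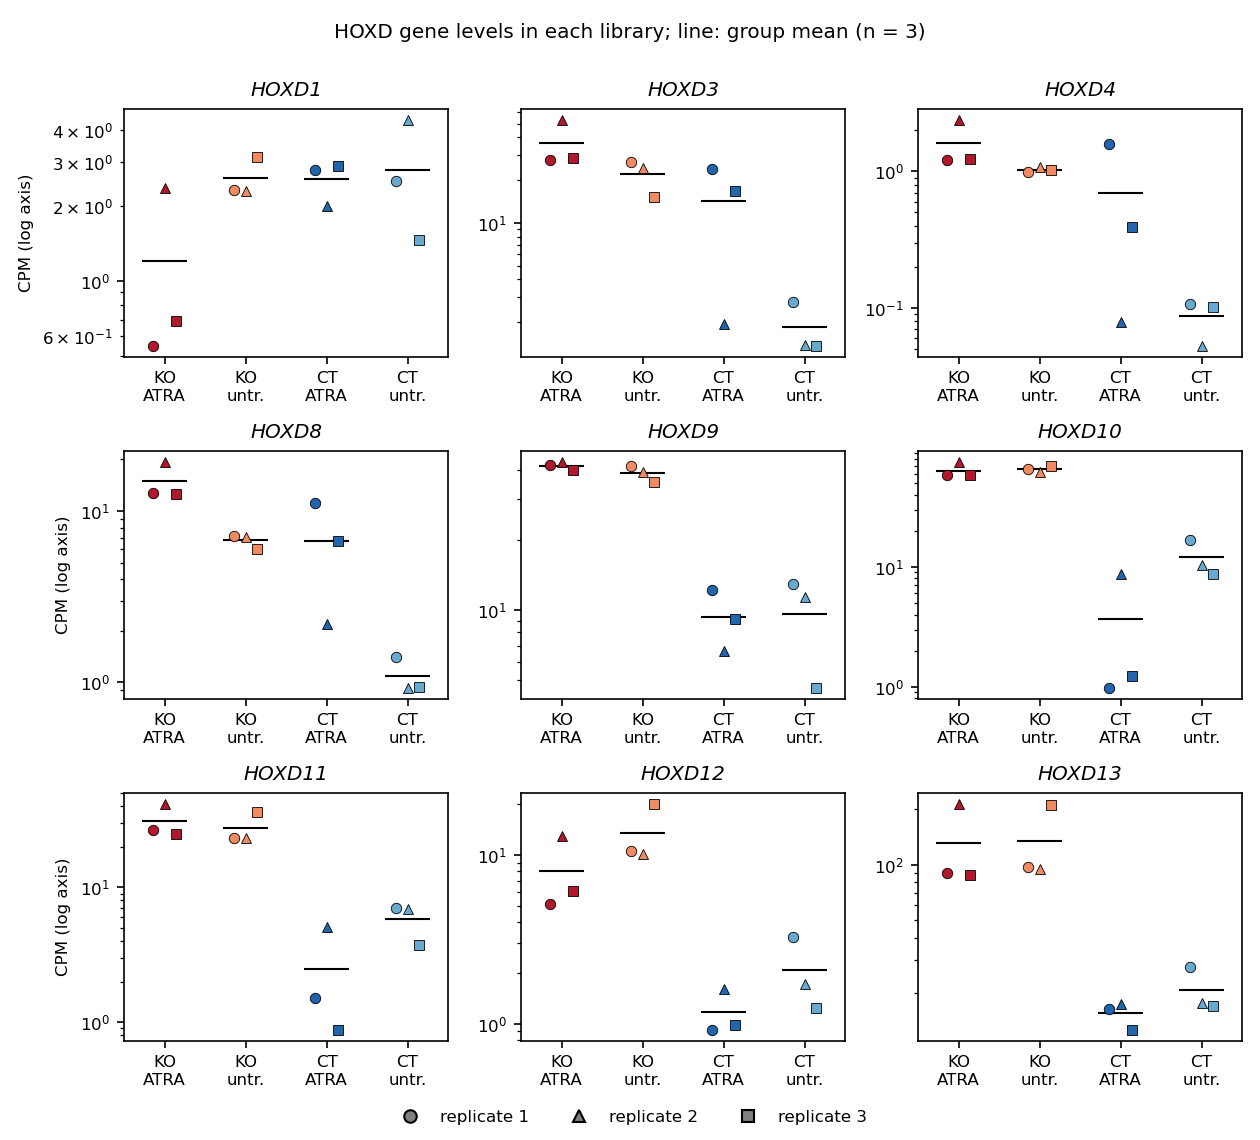
Level of each HOXD gene in every library (CPM, log axis, a panel per gene in numerical order), with a point per library, its shape giving the replicate number, and a line at the group mean; KO is the PRMT6 knockout and CT the control. In 8 panels, all but HOXD1, the untreated knockout points lie above all untreated control points, and in HOXD3, HOXD4 and HOXD8 the triangle of control ATRA 2 lies at the bottom of its group.

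Untreated PRMT6 knockout cells were compared with untreated control cells to ask whether the cluster is held at a different level without PRMT6 in the pluripotent state. HOXD transcripts were higher over nearly the whole cluster in the knockout: 8 of the 9 genes were called higher, from 4.01-fold (HOXD9) to 12.1-fold (HOXD3), and only HOXD1 was not. Calls were made at an adjusted p under 0.05 in edgeR's quasi-likelihood test over 19130 genes, 13% of which were called higher in this comparison and 21.9% lower. All 9 members passed the filter on low counts. In each of the 8 called genes the lowest knockout library was above the highest control library, which 20.9% of all tested genes also showed in that direction. The median log2 ratio (knockout over control, the fold change on a log2 scale) was 2.63 over the 9 genes and -0.11 over all tested genes. Because these are bulk libraries, more cells with HOXD transcripts and more transcripts per cell cannot be told apart.

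The anterior genes had the largest ratios. HOXD3, which patterns the neck vertebrae in mice, stood at 26.8, 24.3 and 15.3 CPM in the untreated knockout libraries, against 2.78, 1.39 and 1.37 CPM in the untreated control libraries. The knockout library with the least HOXD3 was untreated 3, and the groups did not overlap. The log2 ratio was 3.59 ± 0.71 (SE, edgeR adjusted p = 0.0051). HOXD4, its neighbour, which carries a known retinoic acid response element in mice, was much scarcer: it had 28, 33 and 24 counts in the untreated knockout libraries, against 4, 3 and 7 counts in the untreated control libraries. That came to 0.984, 1.08 and 1.03 CPM in the knockout and 0.107, 0.0528 and 0.101 CPM in the control, where 3 counts are worth 0.0433 to 0.0801 CPM. The control level of HOXD4 therefore rests on 14 counts in all, and its log2 ratio of 3.53 ± 0.84 (SE, edgeR adjusted p = 0.00933) is correspondingly rough. HOXD1 was the exception. It stood at 2.32, 2.29 and 3.13 CPM in the untreated knockout libraries and at 2.51, 4.4 and 1.46 CPM in the untreated control libraries. The groups overlapped fully, with a log2 ratio of -0.11 ± 0.53 (SE, edgeR adjusted p = 0.881).

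HOXD8, the central gene, had 7.13, 7.1 and 5.99 CPM in the untreated knockout libraries, against 1.41, 0.933 and 0.937 CPM in the untreated control libraries. It was 6.18-fold higher in the knockout, with tight replicates on both sides (log2 ratio 2.63 ± 0.49 SE, edgeR adjusted p = 0.00419). Among the posterior genes HOXD9 was at 41.4, 39 and 35.6 CPM in the knockout, against 12.9, 11.4 and 4.64 CPM in the control, the spread lying on the control side. Its log2 ratio of 2.0 ± 0.35 was the lowest of the 8 (SE, edgeR adjusted p = 0.00334). HOXD10 was at 65.6, 61.5 and 68.9 CPM in the knockout and at 16.9, 10.4 and 8.65 CPM in the control (log2 ratio 2.45 ± 0.64 SE, edgeR adjusted p = 0.0137). Without control untreated 3 the call for HOXD10 was lost, with 2.26 on the log2 scale and edgeR adjusted p = 0.0602. HOXD11, which with HOXA11 shapes the forearm in mice, had 23.3, 23.4 and 36 CPM in the knockout and 6.99, 6.89 and 3.71 CPM in the control (log2 ratio 2.23 ± 0.53 SE, edgeR adjusted p = 0.00977).

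HOXD12 and HOXD13 closed the posterior end with similar ratios. HOXD13, the gene of digits and genitalia whose mutations cause synpolydactyly in people, had 96.5, 94.8 and 212 CPM in the untreated knockout libraries, against 27.8, 17.5 and 17 CPM in the untreated control libraries. The high value belonged to knockout untreated 3, the library with the low fibroblast marker sum, and the other two lay close together. HOXD13 was 6.47-fold higher in the knockout (log2 ratio 2.69 ± 0.42 SE, edgeR adjusted p = 0.00286). HOXD12 showed the same library order, with 10.5, 10.1 and 20 CPM in the knockout and 3.26, 1.71 and 1.23 CPM in the control (log2 ratio 2.72 ± 0.49 SE, edgeR adjusted p = 0.00387). Leaving out knockout untreated 3 and knockout ATRA 2 together, an alternative chosen after seeing the data, left 8 genes called higher, among 8.8% of tested genes. The knockout libraries kept in that fit were the near-identical pairs, so its spread on the knockout side is that of near-duplicates. HOXD13 then had a log2 ratio of 2.21 ± 0.27 and HOXD12 of 2.33 ± 0.44 (SE, edgeR adjusted p = 0.00286 and 0.0109). The fibroblast marker sum was higher in all 3 untreated knockout libraries than in any untreated control library. Of its 10 genes, 6 were called higher and 1 lower, beside 13% and 21.9% of all tested genes. The part of that sum in these differences was not tested. With the near-identical knockout libraries summed to 1 sample each, the test left 5 genes called instead of 8, in a fit where 2.04% of all tested genes were called higher: HOXD4, HOXD10 and HOXD11 had log2 ratios of 3.55, 2.47 and 2.34 and edgeR adjusted p = 0.0523, 0.0613 and 0.0512.

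With ATRA the same genotypes were compared again, to ask what PRMT6 loss leaves of the difference once the cells have met the signal that opens the cluster. The calls then lay at the posterior end. All 5 posterior genes were called higher in the knockout, from 4.49-fold (HOXD9) to 17.3-fold (HOXD10), and none of the 4 anterior and central genes was, while 3.27% of all tested genes were called higher and 4.24% lower. In 7 of the 9 genes the knockout libraries lay wholly above the control libraries, as in 16.7% of all tested genes. The median log2 ratio was 2.17 over the 9 genes and -0.06 over all tested genes.

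HOXD10 had 57.9, 74.9 and 58.1 CPM in the knockout libraries with ATRA, against 0.984, 8.78 and 1.22 CPM in the control libraries with ATRA. The knockout level was about that of untreated knockout cells, and the highest control value belonged to control ATRA 2. The log2 ratio was 4.11 ± 0.69 (SE, edgeR adjusted p = 0.00829), and 5.84 ± 0.37 without control ATRA 2 (edgeR adjusted p = 3.25e-05). That library was singled out after its values were seen. HOXD11 followed the same pattern, with 26.8, 41.5 and 24.9 CPM in the knockout and 1.51, 5.09 and 0.881 CPM in the control. Its log2 ratio was 3.63 ± 0.57 (SE, edgeR adjusted p = 0.00569), and 4.70 ± 0.46 without control ATRA 2 (edgeR adjusted p = 0.000757). HOXD13 had 90.5, 214 and 87.5 CPM in the knockout and 16.4, 17.3 and 12.6 CPM in the control. The high library was knockout ATRA 2, again the one with the low fibroblast marker sum. HOXD13 had a log2 ratio of 3.08 ± 0.43 (SE, edgeR adjusted p = 0.00321), and of 2.53 ± 0.27 without knockout untreated 3 and knockout ATRA 2 (edgeR adjusted p = 0.00158). That fit again kept only the near-identical pairs of knockout libraries.

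HOXD12 and HOXD9 completed the posterior group. HOXD12 had 5.1, 12.9 and 6.09 CPM in the knockout with ATRA against 0.923, 1.61 and 0.985 CPM in its control (log2 ratio 2.77 ± 0.50 SE, edgeR adjusted p = 0.0101). HOXD9 had 41.9, 43.2 and 40.1 CPM in the knockout and 12.2, 6.63 and 9.13 CPM in the control (log2 ratio 2.17 ± 0.35 SE, edgeR adjusted p = 0.00625). Without control ATRA 2 the same 5 genes were called higher, among 1.43% of tested genes. With the near-identical knockout libraries summed only HOXD11 and HOXD13 were called, among 0.248% of tested genes, HOXD9, HOXD10 and HOXD12 having edgeR adjusted p = 0.0641, 0.0621 and 0.0552 at log2 ratios of 2.18, 4.18 and 2.98.

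At the anterior end and the centre the knockout libraries with ATRA were still mostly the higher ones, but the differences did not pass the test. HOXD3 had 27.7, 53 and 28.5 CPM in the knockout with ATRA, against 23.9, 1.95 and 16.8 CPM in the control with ATRA. Leaving aside control ATRA 2, the lowest knockout value was only a little above the highest control value. The log2 ratio was 1.36 ± 0.64 (SE, edgeR adjusted p = 0.189), and 0.84 ± 0.41 without control ATRA 2 (edgeR adjusted p = 0.297). HOXD8 had 12.8, 19.3 and 12.6 CPM in the knockout and 11.1, 2.18 and 6.64 CPM in the control (log2 ratio 1.17 ± 0.46 SE, edgeR adjusted p = 0.121). HOXD4 had 1.22, 2.38 and 1.24 CPM in the knockout and 1.6, 0.078 and 0.389 CPM in the control, with overlapping groups (log2 ratio 1.24 ± 0.71 SE, edgeR adjusted p = 0.277). Without control ATRA 1, its highest control library, HOXD4 was called higher, with 2.77 on the log2 scale and edgeR adjusted p = 0.0356. In that fit 1.71% of tested genes were called higher. HOXD1 was again not called: it had 0.551, 2.35 and 0.689 CPM in the knockout with ATRA against 2.77, 2 and 2.88 CPM in the ATRA-treated control. The groups overlapped through knockout ATRA 2 (log2 ratio -1.09 ± 0.54 SE, edgeR adjusted p = 0.212). Without that library HOXD1 was called lower in the knockout, with a log2 ratio of -2.03 and edgeR adjusted p = 0.0452. The knockout libraries with ATRA in that fit were only the near-identical pair, and 1.74% of tested genes were called lower there.

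**Figure D2:**
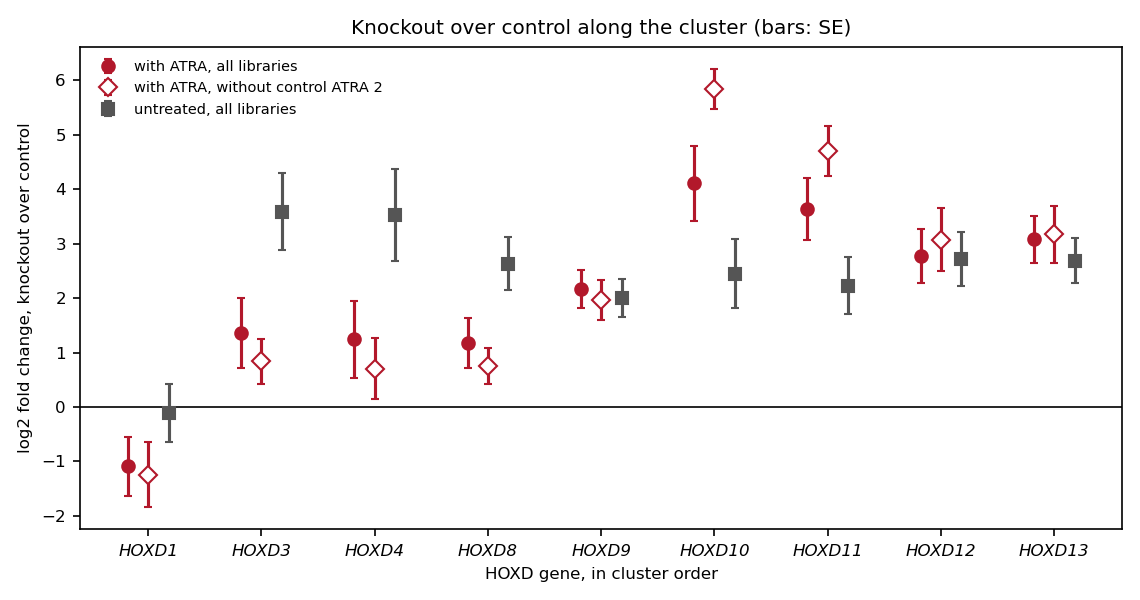
Log2 fold change of knockout over control for each HOXD gene in cluster order (error bars, SE), with ATRA (circles, and diamonds without control ATRA 2) and untreated (squares). Untreated, HOXD3 to HOXD13 lie between 2.0 and 3.59; with ATRA, HOXD3, HOXD4 and HOXD8 lie near 1 and HOXD10 reaches 4.11, or 5.84 without control ATRA 2.

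The response to ATRA in control cells shows how the cluster behaves with PRMT6 present. With all libraries in the fit edgeR called 0 of the 9 HOXD genes in either direction, while 0.0993% of all tested genes were called higher and 0.0157% lower. At an unadjusted p under 0.05, 3 of the 9 were higher (HOXD3, HOXD4 and HOXD8) and 2 lower (HOXD10 and HOXD11). Of the 19130 tested genes, 1901 were higher and 2060 lower at that threshold. DESeq2 called 3 of the 9 higher, beside 4.54% of all tested genes, and limma-voom 0, beside 0.105%. The fit held 1 library, control ATRA 2, whose HOXD levels lay near those of untreated cells. HOXD8 had 11.1, 2.18 and 6.64 CPM in the control libraries with ATRA, against 1.41, 0.933 and 0.937 CPM in the untreated control libraries, and these groups did not overlap, which 7.39% of tested genes showed in that direction (log2 ratio 2.60 ± 0.49 SE, edgeR adjusted p = 0.057). HOXD3 had 23.9, 1.95 and 16.8 CPM with ATRA, against 2.78, 1.39 and 1.37 CPM untreated, so control ATRA 2 fell inside the untreated range (log2 ratio 2.95 ± 0.69 SE, edgeR adjusted p = 0.0674). HOXD10 had 0.984, 8.78 and 1.22 CPM with ATRA, against 16.9, 10.4 and 8.65 CPM untreated, and again control ATRA 2 lay at the untreated level (log2 ratio -1.70 ± 0.63 SE, edgeR adjusted p = 0.16).

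Without control ATRA 2, a library singled out after its values were seen, some HOXD genes moved in opposite directions in control cells. The p-values of this fit are therefore no independent test of these genes. HOXD3, HOXD4 and HOXD8 rose with ATRA and HOXD10 and HOXD11 fell, while the genes at the very ends, HOXD1 and HOXD13, were not called, in a fit where 5.4% of tested genes were called higher and 6.87% lower. HOXD3 rose 11.2-fold (log2 ratio 3.48 ± 0.41 SE, edgeR adjusted p = 0.00123), HOXD4 also 11.2-fold (3.48 ± 0.63, edgeR adjusted p = 0.0076) and HOXD8 8.17-fold (3.03 ± 0.34, edgeR adjusted p = 0.000898). HOXD10 fell by 3.43 ± 0.33 on the log2 scale (SE, edgeR adjusted p = 0.000608), which is 10.8-fold lower with ATRA, and HOXD11 by 2.29 ± 0.42 (edgeR adjusted p = 0.00786). HOXD12, HOXD13, HOXD9 and HOXD1 had log2 ratios of -1.09 ± 0.54, -0.51 ± 0.46, 0.15 ± 0.35 and 0.02 ± 0.59 (SE) and were not called. In control ATRA 2, HOXD-AS2, the antisense transcript over HOXD8 and HOXD9, had 12.3 CPM, against 14.8 and 9.7 CPM in the other control libraries with ATRA and 1.36 to 3.2 CPM in the untreated control libraries. HOXB1 had 1.17 CPM there, against 72.8 and 39.2 CPM in the other control libraries with ATRA and 2.67 to 9.07 CPM in the untreated ones. Whether control ATRA 2 differed in its exposure to ATRA or in another way was not tested.

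In PRMT6 knockout cells no HOXD gene was called between ATRA and untreated. By edgeR 0 of the 9 genes were called, against 0.0261% of all tested genes called higher and 0.00523% lower. At an unadjusted p under 0.05 HOXD8 was higher and none was lower, beside 1357 higher and 876 lower of 19130 tested genes. Neither DESeq2 nor limma-voom called any of the 9. HOXD8 had 12.8, 19.3 and 12.6 CPM in the knockout with ATRA, against 7.13, 7.1 and 5.99 CPM in the untreated knockout (log2 ratio 1.14 ± 0.46 SE, edgeR adjusted p = 0.343). The groups of HOXD8 did not overlap, and fitted on the knockout libraries alone it was called, with 1.12 on the log2 scale and edgeR adjusted p = 0.0281. HOXD3 and HOXD4 also lay above all untreated knockout libraries, with log2 ratios of 0.72 ± 0.63 and 0.64 ± 0.70 (SE, edgeR adjusted p = 0.759 and 0.823). In all, 3 of the 9 genes had ATRA libraries wholly above the untreated ones, a separation seen in 17.2% of tested genes. Of the posterior genes, HOXD9, HOXD10, HOXD11 and HOXD13 had log2 ratios of 0.11 ± 0.33, -0.04 ± 0.61, 0.17 ± 0.51 and -0.04 ± 0.40 (SE). HOXD12 had -0.75 ± 0.46 (SE, edgeR adjusted p = 0.595), with -1.27 to -0.35 when 1 library at a time was left out. HOXD1 had the lowest value, -1.11 ± 0.55 (SE, edgeR adjusted p = 0.467).

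**Figure D3:**
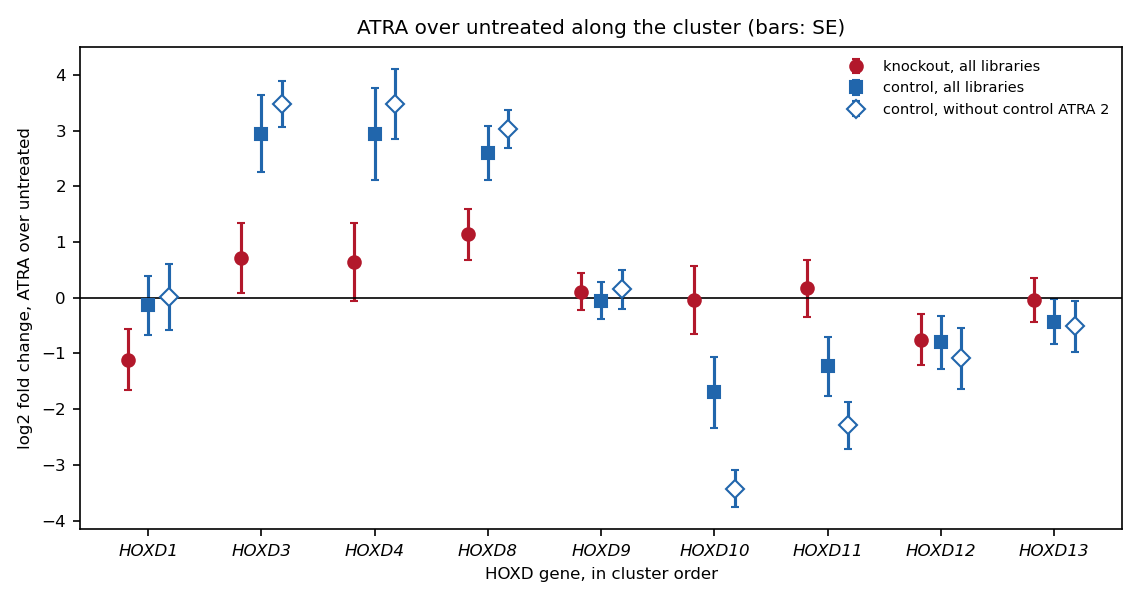
Log2 fold change of ATRA over untreated for each HOXD gene in cluster order (error bars, SE), in knockout cells (circles) and control cells (squares, and diamonds without control ATRA 2). In control cells HOXD3, HOXD4 and HOXD8 lie at 2.60 to 2.95 with all libraries and HOXD10 at -1.70, or -3.43 without control ATRA 2; the knockout values lie between -1.11 and 1.14.

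The difference between the ATRA responses was tested directly as an interaction, the response in the knockout minus that in the control. With all libraries edgeR called 0 of the 9 HOXD genes and 0% of all tested genes. At an unadjusted p under 0.05 it gave 2 of the 9 lower (HOXD3 and HOXD8), beside 643 of 19130 tested genes. DESeq2 and limma-voom called none of the 9. HOXD3 had an interaction of -2.24 ± 0.91 and HOXD8 of -1.46 ± 0.65 on the log2 scale (SE, edgeR adjusted p = 0.509 for both). HOXD10 had 1.67 ± 0.87 (edgeR adjusted p = 0.538). Without control ATRA 2, HOXD10 was called with 3.39 ± 0.40 (SE, edgeR adjusted p = 0.0263), as 1 of 2 genes called among 19711, which is 0.0101%. That library was singled out after its values were seen, and its 8.78 CPM of HOXD10 lay at the untreated control level. The call without it is therefore no independent test of HOXD10. The ATRA response of HOXD10 in that fit was -0.04 ± 0.24 in the knockout and -3.43 ± 0.33 in the control (SE). HOXD11, HOXD3, HOXD4 and HOXD8 then had interactions of 2.46, -2.76, -2.84 and -1.88 and were not called (edgeR adjusted p = 0.16, 0.114, 0.201 and 0.181).

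The share of the posterior genes puts the same data on one scale per library. Counts were divided by the gene lengths in the deposited table, and the share of HOXD9 to HOXD13 in the sum over all 9 genes was taken in percent. It was 89.5%, 89.4% and 89.1% in the knockout libraries with ATRA, 91.5%, 91.5% and 95.7% in the untreated knockout libraries, 55.8%, 88.3% and 59.8% in the control libraries with ATRA, and 92.5%, 87.8% and 91.5% in the untreated control libraries. Control ATRA 1 and 3 were the only libraries of the 12 with a share below 87.8%, and control ATRA 2 lay within the untreated control range. The knockout share with ATRA was 21.4 percentage points above the control share with ATRA (two-sided exact permutation test p = 0.1, the smallest that 3 against 3 libraries allow). Untreated, the knockout and control shares differed by 2.3 percentage points (p = 0.5, same exact test), with overlapping groups. ATRA minus untreated was -3.54 percentage points in the knockout (p = 0.1) and -22.6 in the control (p = 0.2) by the same exact test.

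**Figure D4:**
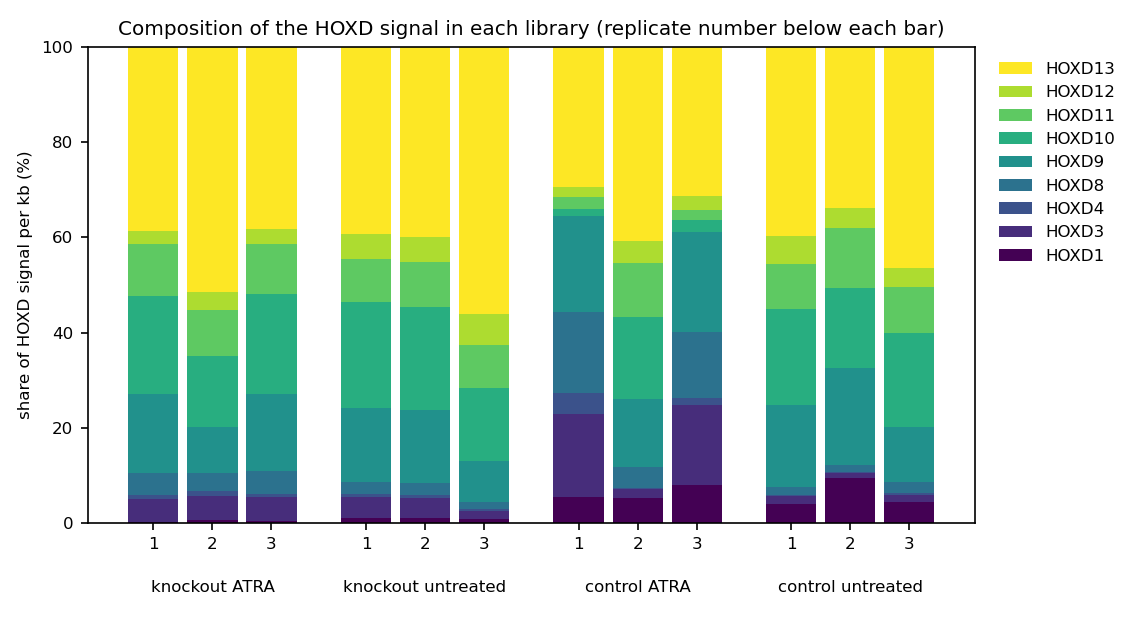
Composition of the HOXD signal in each library, as the share of each gene in the summed counts per kilobase (percent, bars stacked to 100), with the replicate number below each bar. HOXD9 to HOXD13 fill 89.1 to 95.7% of the knockout bars, and 55.8 and 59.8% of control ATRA 1 and 3.

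Per kilobase of gene length, HOXD13 was the most abundant HOXD transcript in all 4 groups. It averaged 58.4 ± 32.4 CPM per kb in the knockout with ATRA, 60 ± 29.9 in the untreated knockout, 6.89 ± 1.11 in the control with ATRA and 9.27 ± 2.72 in the untreated control (SD, n = 3 each). In both knockout groups HOXD10, HOXD9 and HOXD11 came next; HOXD10 lay below every HOXD13 value, while HOXD9 and HOXD11 overlapped each other. In the untreated control the same 3 genes followed HOXD13 with overlapping ranges, HOXD10 at 4.45 ± 1.61, HOXD9 at 3.99 ± 1.82 and HOXD11 at 2.49 ± 0.795 CPM per kb (SD, n = 3). In the control with ATRA the order below HOXD13 was HOXD9, HOXD3, HOXD8 and HOXD10, and each neighbour in that order from HOXD9 down overlapped the next. The fifth place of HOXD10 there rests on control ATRA 2: it had 0.366, 3.26 and 0.453 CPM per kb, against 1.09, 0.0533 and 0.266 for HOXD4, the scarcest by its mean. HOXD4 was also the scarcest in both untreated groups, and HOXD1 in the knockout with ATRA, where they overlapped.

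The neighbours of the cluster were read to see where the difference ended. On the HOXD13 side EVX2, an even-skipped homeobox gene, was higher in the knockout in both conditions, and beyond it KIAA1715 (LNPK) and ATP5G3 were not called, with untreated log2 ratios of -0.39 ± 0.34 and 0.45 ± 0.26 (SE). With each library's trend with GC content removed both were called higher in the untreated knockout, with 0.82 and 1.54 on the log2 scale (edgeR adjusted p = 0.0383 and 0.0117), so where the difference ended on that side depends on this setting. EVX2 had 1.9, 1.9 and 1.28 CPM in the untreated knockout libraries, against 0.187, 0.123 and 0.173 CPM in the untreated control libraries (log2 ratio 3.38 ± 0.55 SE, edgeR adjusted p = 0.00294). With ATRA it had 1.97, 2.44 and 2.29 CPM in the knockout and 0.4, 0.052 and 0.363 CPM in the control (log2 ratio 3.04 ± 0.54 SE, edgeR adjusted p = 0.0097). Within the cluster HOXD-AS2 was 4.36-fold higher in the untreated knockout, at 12.1, 11.6 and 9.42 CPM against 3.2, 3.06 and 1.36 CPM in the untreated control (edgeR adjusted p = 0.00314). With ATRA it did not differ detectably (log2 ratio -0.23 ± 0.34 SE, edgeR adjusted p = 0.698), and in control cells it rose 4.84-fold with ATRA (edgeR adjusted p = 0.0441), the only one of the 9 neighbours tested that was called there. HOXD-AS1 (HAGLR), the antisense transcript at the HOXD1 end, was not called in either condition, with log2 ratios of -1.0 ± 0.37 with ATRA and 0.24 ± 0.37 untreated (SE, edgeR adjusted p = 0.106 and 0.63).

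Some outer neighbours were lower. MTX2, a mitochondrial import gene, HNRNPA3, an RNA-binding protein gene, and, far out on the other side, ATF2, a stress-responsive transcription factor, were called lower in the untreated knockout, 3 of 9 neighbours, beside 21.9% of all tested genes. MTX2 had 36.3, 40.5 and 48.3 CPM in the knockout and 59.9, 81.4 and 51.8 CPM in the control (log2 ratio -0.63 ± 0.23 SE, edgeR adjusted p = 0.0475). HNRNPA3 and ATF2 had log2 ratios of -1.19 ± 0.26 and -1.34 ± 0.35 (SE, edgeR adjusted p = 0.00755 and 0.0135). All 3 calls were lost once each library's trend with GC content was removed, with -0.16, 0.05 and -0.06 on the log2 scale (edgeR adjusted p = 0.657, 0.866 and 0.835), while the 8 HOXD genes, EVX2 and HOXD-AS2 were still called. With ATRA edgeR called none of the 9 neighbours lower. At an unadjusted p under 0.05, 3 were lower, as were 3289 of 19130 tested genes. DESeq2 called 2 of the neighbours lower, beside 8.58% of all tested genes, and limma-voom 0. Removing the GC trend also moved the untreated calls over all genes to 8.27% higher and 9.2% lower. The gene models overlap in the GENCODE annotation of the cluster: HOXD4 lies inside HOXD3 on the same strand, and HOXD10 and HOXD11 overlap on the same strand. On the opposite strand HOXD-AS2 covers HOXD8 and HOXD9 and part of HOXD3, and HOXD-AS1 overlaps HOXD3 and HOXD1. These gene models are on GRCh38, while hg19 (GRCh37) is named for the deposited counts, so the models used in counting may differ. Whether counting used strand is not given in the sources used here, so the split of counts between such genes is uncertain.

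**Figure D5:**
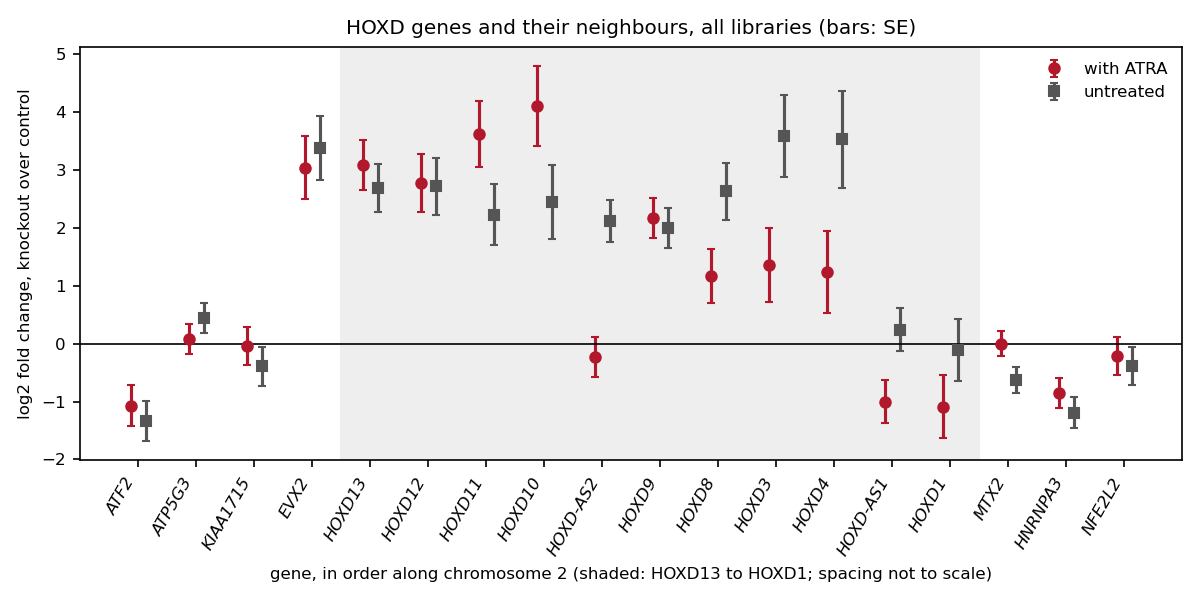
Log2 fold change of knockout over control (error bars, SE) for the 9 HOXD genes and 9 neighbours in their order along chromosome 2, with ATRA (circles) and untreated (squares); the HOXD13 to HOXD1 stretch is shaded and spacing is not to scale. The values from EVX2 to HOXD4 lie above 1 in both conditions except HOXD-AS2 with ATRA at -0.23, and from HOXD-AS1 onwards none was called higher.

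Other genes of the same system were counted from fixed lists. Of 20 paralogs of these genes in the HOXA, HOXB and HOXC clusters, 18 were tested: 8 were higher with ATRA and 13 untreated in the knockout by the same test, with none lower, and median log2 ratios of 3.09 and 4.10. Of all tested genes, 3.27% were called higher and 4.24% lower with ATRA, and 13% higher and 21.9% lower untreated. The paralogs of HOXD13 can serve as the example. HOXA13, HOXB13 and HOXC13 had log2 ratios of 7.37, 2.40 and 1.09 with ATRA (edgeR adjusted p = 0.000305, 0.0943 and 0.0357) and of 7.53, 3.22 and 1.08 untreated (edgeR adjusted p = 0.000249, 0.0163 and 0.0125). Of 9 cofactor genes of the MEIS, PBX and PKNOX families, whose proteins bind DNA together with HOX proteins, 0 were called in the knockout with ATRA by edgeR, DESeq2, limma-voom or at an unadjusted p under 0.05. Untreated, 1 of the 9, MEIS1, was called higher (log2 ratio 2.95 ± 0.82 SE, edgeR adjusted p = 0.0174), beside 13% of all tested genes. DESeq2 called 2 of the 9 higher and limma-voom 0, beside 17.8% and 14% of all tested genes. Of 28 Polycomb genes, 5 were called higher and 8 lower in the untreated knockout, not far from the 13% and 21.9% of all tested genes. RBBP7, a histone-binding subunit, and PCGF6, a subunit of a variant complex, had the smallest adjusted p, with log2 ratios of -1.23 ± 0.22 and -1.71 ± 0.35 (SE, edgeR adjusted p = 0.00384 and 0.00569). With ATRA edgeR called 0 of the 28, with 5 higher and 6 lower at an unadjusted p under 0.05, 2 higher and 1 lower by DESeq2 and 0 by limma-voom. Of all 19130 tested genes, 2087 were higher and 3289 lower at that unadjusted threshold, and DESeq2 called 6.91% higher and 8.58% lower. Of 11 trithorax and H3K27 demethylase genes, 3 were lower in the untreated knockout, again near the 21.9% of all tested genes, among them DPY30, a core subunit of the H3K4 methyltransferases, and KDM6A, a demethylase, at -1.89 ± 0.39 and -0.98 ± 0.26 (SE, edgeR adjusted p = 0.00618 and 0.0153). With ATRA edgeR called 0 of those 11, with 1 lower at an unadjusted p under 0.05 and 0 by DESeq2 and limma-voom.

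Across the 12 libraries the genes most like HOXD13 among 13962 compared, by Pearson's r of log2 (CPM + 1), were AEN (r = 0.974, Spearman rho = 0.937), HOXD12 (r = 0.972, rho = 0.979) and HSPA1A (r = 0.963, rho = 0.797), whose near-identical copy HSPA1B could share its reads. For HOXD3 they were CNN2 (r = 0.986, rho = 0.944), REPIN1 (r = 0.986, rho = 0.944) and MPPED2 (r = 0.984, rho = 0.965). The libraries fall into 4 groups with near-identical pairs among them, so these values describe the likeness of the profiles and carry no p.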

How the data were processed

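RNA was sequenced from 12 libraries of NT2/D1 cells. The authors deposited raw read counts per gene, 56638 genes by 12 libraries, with gene lengths; libraries were made with a stranded mRNA kit, per the labels' protocols, and bcl2fastq, TopHat2, Subread featureCounts, DESeq2 and hg19 (GRCh37) are named, per the submitters' processing notes. The strand setting of counting is not given in the sources used here. Totals were 25469881 to 60394918 counts, and 3 counts set the floor, which covers counting error only.

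The whole table was fitted with edgeR 4.0.16 (R 4.3.3): quasi-likelihood F-test, TMM scaling, filterByExpr with a minimum count of 10 (19130 genes), 1 coefficient per group, and Benjamini-Hochberg adjusted p under 0.05. SE is the absolute log2 fold change over the square root of F. CPM used TMM-scaled totals. The method was tested on simulated data. Alternatives were DESeq2 1.42.0, limma-voom 3.58.1, RLE scaling, other filters, only the groups compared, a replicate block, summed near-identical libraries, GC trend removal (GC content known for 85.6% of tested genes) and leaving out each library. The named genes were all HOXD genes, fixed locus neighbours and PRMT6, with set numbers of examples from paralog, cofactor, Polycomb and trithorax lists. The members and lists were chosen with earlier results of these data known. No label ties the replicates to independent cultures, so the p-values rest on library-to-library spread that could be purely technical. HOXD-AS3 was not analysed here.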

Additional observations from a re-analysis of the deposited data

How the results depend on the processing

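The call of most HOXD genes in the untreated genotypes held over the alternatives run: 8 were called higher under 9 of 11 other settings and in 11 of 12 leave-one-out fits (range 7 to 8). DESeq2 called 7 untreated and 4 with ATRA, beside 17.8% and 6.91% of all tested genes, its adjusted p for HOXD10 being missing in both. With the near-identical knockout libraries summed, 5 were called untreated and 2 with ATRA, in a fit of fewer samples; leave-one-out gave 5 to 6 with ATRA. In control cells ATRA against untreated gave 3 called higher instead of 0 by DESeq2, without the low-count filter, and without control untreated 2 and control ATRA 2 together (chosen after seeing the data), and 0 to 3 in leave-one-out fits, 2 without control untreated 1 and 3 without control ATRA 2. Of all tested genes, 4.54% were called higher by DESeq2, 1.93% without the low-count filter and 4.75% without control untreated 2 and control ATRA 2. The share was 5.81% without control untreated 1 and 5.4% without control ATRA 2. In the knockout, ATRA against untreated gave 1 instead of 0 with only the compared groups, beside 4.11% of tested genes. It gave 0 in every leave-one-out fit. The interaction gave 1 instead of 0 without control untreated 2 and control ATRA 2 together, beside 0.00519% of tested genes called higher and 0.0363% lower. It gave 0 to 1 in leave-one-out fits, with 1 without control ATRA 2, beside 0.0101% of tested genes called in either direction. The cause of these changes was not tested.

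The replicate numbers did not pair the libraries: 18 correlations of same-numbered libraries ran from -0.49 to 0.39, 3 of them above 0.1. With the replicate block the counts were 8, 5, 0, 0 and 0, as without it.

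The posterior share, knockout minus control untreated, turned to -0.59 percentage points when counts were not divided by length (exact permutation p = 0.8). Leaving out 1 library at a time, it ran from 0.907 to 3.24, with ATRA from 15.3 to 31.6, for ATRA in control cells from -32.8 to -16.5 and in knockout cells from -4.25 to -2.14.

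The sign changes all concerned log2 ratios that were not called with all libraries, except HNRNPA3. Untreated, knockout over control, HOXD1 turned to 0.03 by limma-voom, 0.02 with the replicate block and 0.38 without control untreated 2 and control ATRA 2; with the GC trend removed KIAA1715 turned to 0.82 (edgeR adjusted p = 0.0383), HNRNPA3 to 0.05 and NFE2L2 to 0.62. With ATRA, KIAA1715 turned to 0.01 by RLE scaling and by DESeq2, 0.56 with the GC trend removed, 0.19 without knockout untreated 3 and knockout ATRA 2, and 0.14 without control untreated 2 and control ATRA 2. MTX2 there turned to 0.04 by RLE scaling, DESeq2 and summed libraries, 0.02 by limma-voom, 0.03 by the stricter filter and 0.27 with the GC trend removed, and NFE2L2 to 0.37 with the GC trend removed and 0.12 without the control pair. For ATRA in control cells HOXD1 turned to 0.01 by limma-voom, 0.03 with the replicate block and 0.51 without the control pair, and HOXD9 to 0.07 by limma-voom and 0.28 without the control pair. For ATRA in knockout cells HOXD10 turned to 0.01 with summed libraries, and HOXD13 to 0.00 without the low-count filter and 0.06 with the GC trend removed. In the interaction HOXD9 turned to -0.17 without the control pair, and HOXD12 to -0.10 by limma-voom and -0.08 without the knockout pair.

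Leave-one-out ranges that crossed 0 were -0.43 to 0.38 for HOXD1 and -0.03 to 0.57 for HOXD-AS1 untreated. With ATRA they were -0.23 to 0.19 for KIAA1715, -0.15 to 0.1 for MTX2, -0.02 to 0.19 for ATP5G3 and -0.48 to 0.12 for NFE2L2. For ATRA in control cells they were -0.44 to 0.37 for HOXD1 and -0.39 to 0.23 for HOXD9. For ATRA in knockout cells they were -0.17 to 0.03 for HOXD10, -0.09 to 0.41 for HOXD11 and -0.59 to 0.45 for HOXD13. In the interaction they were -0.11 to 0.5 for HOXD9, -0.47 to 0.45 for HOXD12 and -0.17 to 0.88 for HOXD13.

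Depth limits HOXD4 most, with 14 counts in the untreated control group. The knockout is 1 line, its near-identical library pairs carry less information than 3 libraries each, and leaving out control ATRA 2 changes the ATRA calls in control cells.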

Other observations

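RP11-387A1.5, a transcript named by its clone and chosen after its values were seen, lies between HOXD4 and HOXD-AS1 in the order of the deposited table. It had 7, 4 and 7 counts in the knockout libraries with ATRA, 0, 1 and 5 in the untreated knockout libraries, 76, 0 and 102 in the control libraries with ATRA, and 4, 10 and 2 in the untreated control libraries. In CPM the control libraries with ATRA stood at 2.34, 0 and 2.64, the library at 0 being control ATRA 2, where 3 counts are worth 0.078 CPM. It did not pass the filter on low counts in the fit of all libraries, and no test was made.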
